A study of Mus musculus with 12 samples.

Results

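The Schlafen family was examined in regulatory T cells (Treg) of mice, as the 7 genes Slfn1, Slfn2, Slfn3, Slfn4, Slfn5, Slfn8 and Slfn9 among the 36222 genes of the expression table. The members were taken by gene symbol, and all 7 had a row. The study asked how Ikaros, the transcription factor encoded by Ikzf1, shapes gene expression in Treg, by RNA sequencing of 12 libraries, 3 for each of 4 groups. WT ex vivo Treg came from mice with the Foxp3-YFP-Cre driver alone. They were sorted by YFP from spleen CD4+ T cells of individual age-matched animals and not stimulated. The study's methods for cell purification name lymph nodes beside the spleen. The cKO ex vivo Treg came from Ikzf1-fl-Foxp3-YFP-Cre mice, which carry the same driver and a floxed Ikzf1 gene that the Cre recombines where Foxp3 is expressed. WT stimulated and cKO stimulated Treg were the same 2 genotypes after 4 h on plate-bound antibodies to CD3 and CD28 at 1 µg/ml each. The controls therefore shared the Cre and the reporter with the cKO.

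Schlafen proteins share a core domain that resembles a nucleic acid binding fold, and several cut or bind transfer RNA. They are sorted by size. The short members (Slfn1 and Slfn2) hold little beyond the core, the intermediate members (Slfn3 and Slfn4) add a linker domain, and the long members (Slfn5, Slfn8 and Slfn9) add a helicase-like domain at the C terminus. The family was first described for its regulation during thymocyte development and T cell activation, Slfn2 is needed for T cells to stay quiescent, and many members respond to interferon.

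The 7 genes lay in one cluster on chromosome 11 of mouse build mm9 (NCBIM37), from 82764851 to 83028656, a span of 263.8 kb. Slfn9 and Slfn8 lay side by side on the minus strand, at 82793131 to 82805332 and 82815660 to 82834312. Slfn5, Slfn2, Slfn1, Slfn4 and Slfn3 were on the plus strand. Slfn9 and Slfn8 had coding sequences of equal length, 2733 bases or 910 codons, and were 92.7% identical over it. The 250 bases before their starts were 85.1% identical over 242 aligned bases. These windows are shown because the results turn on how this pair parted, with that of Slfn5, the third long member, below them. Each is printed 5′ to 3′ on the strand of its gene. Capitals mark GGGAA on either strand, the core that Ikaros binds, and the core of an interferon response element on either strand (GAAA, any 2 bases, GAAA).
Slfn8 promoter, chr11:82834313-82834562, minus strand: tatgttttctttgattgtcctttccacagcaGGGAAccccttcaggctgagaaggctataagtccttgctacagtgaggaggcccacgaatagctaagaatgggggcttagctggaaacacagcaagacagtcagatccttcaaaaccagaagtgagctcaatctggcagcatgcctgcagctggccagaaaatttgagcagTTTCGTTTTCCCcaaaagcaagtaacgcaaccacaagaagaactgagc
Slfn9 promoter, chr11:82805333-82805582, minus strand: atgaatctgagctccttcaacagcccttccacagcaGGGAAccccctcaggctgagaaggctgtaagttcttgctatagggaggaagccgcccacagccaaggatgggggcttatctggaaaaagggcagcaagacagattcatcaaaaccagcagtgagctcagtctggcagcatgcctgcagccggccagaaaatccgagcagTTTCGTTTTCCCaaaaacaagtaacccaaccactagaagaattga
Slfn5 promoter, chr11:82764601-82764850, plus strand: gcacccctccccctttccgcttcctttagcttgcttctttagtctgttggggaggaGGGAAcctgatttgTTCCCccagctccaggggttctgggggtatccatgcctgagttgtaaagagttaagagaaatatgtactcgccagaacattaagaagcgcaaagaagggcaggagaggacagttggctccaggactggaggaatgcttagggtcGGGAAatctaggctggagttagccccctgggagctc
The interferon-type match lay on the opposite strand, 48 to 39 bases before the Slfn8 start and 45 to 36 bases before the Slfn9 start. In both windows it shared 3 bases with a GGGAA match, so that the capitals run together there. It was found in 2 of the 7 Schlafen windows and in 754 of 22375 promoters of the same length (3.4%). A GGGAA match was found in 5 of the 7 windows, against 56.1% of all promoters. The windows of Slfn1 and Slfn4 held none. AGGAA, the other Ikaros-type core searched, was in 6 of 7 windows against 58.7% of all promoters, and GGAAA, the NFAT core, in 4 of 7 against 55.5%. TGANTCA, the AP-1 core, was in the window of Slfn4 alone (6.0% of all promoters), while TTCNNNGAA (6.8%) and GTAAACA (2.7%) were in none. These matches describe letters in a window and not binding.

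The likeness of the pair also bears on counting. Of the 51-base stretches of the Slfn9 and Slfn8 exons, the length of the sequenced reads, 86.63% and 84.88% occurred once in the region of the cluster. The longest run common to both coding sequences had 139 bases, at chr11:82816636-82816774 in Slfn8 and chr11:82794733-82794871 in Slfn9, both minus strand. A 51-base read from inside it matches both genes, and is placed only where its mate lies outside. The mates are not part of these shares.
Slfn8 and Slfn9, shared coding run: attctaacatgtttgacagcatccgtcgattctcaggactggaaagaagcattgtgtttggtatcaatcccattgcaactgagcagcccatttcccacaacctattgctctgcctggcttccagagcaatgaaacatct
Slfn4 and Slfn3, the intermediate members, were the closest pair, 95.3% identical over 1524 aligned coding bases. Their longest common run had 95 bases, at chr11:83002288-83002382 in Slfn4 and chr11:83028113-83028207 in Slfn3, both plus strand.
Slfn4 and Slfn3, shared coding run: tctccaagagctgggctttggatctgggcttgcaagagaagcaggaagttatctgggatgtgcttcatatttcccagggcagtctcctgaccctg
Only 77.26% of 51-base stretches of Slfn3 and 88.99% of those of Slfn4 occurred once, and both were low, so reads of this pair are also uncertain. Slfn1 (99.43%), Slfn5 (99.56%) and Slfn2 (95.72%) were more distinct, but Slfn4 shared a run of 101 coding bases with Slfn2 and one of 60 with Slfn1, and Slfn3 one of 54 with Slfn1. Slfn1 and Slfn2 are far more abundant than Slfn3 and Slfn4, and how reads of these runs affect the lower levels was not tested. Exons of Slfn5 overlapped the antisense gene 1700003F17Rik by 77 bases, and the authors counted reads by strand.

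Between 8208659 and 20247649 reads per library fell on genes, and the shallowest group was cKO stimulated. A single gene model, Gm10800, took 17.65% to 55.88% of the TPM (transcripts per 1000000, corrected for gene length) of a library, which lowers the TPM of all other genes by an uneven amount. Levels are therefore given as scaled TPM, the deposited TPM divided by 1 factor per library (0.732 to 1.21). Genes whose highest group mean reached 5 TPM were tested, 13318 in all and 6 of the 7 members, Slfn4 being below that level. That floor was set with earlier results of these data known, and it matters. With a floor of 1 TPM the scaling itself changed, the median change of the same 13318 genes moving to 0.00, -0.31, -0.22, -0.52 and -0.32 (log2) in the 5 comparisons below, and 57, 52 and 1731 genes passed for genotype ex vivo, genotype after stimulation and stimulation in WT in place of 704, 923 and 4262. In the TPM as deposited these medians were 0.21, -0.30, 0.18, -0.31 and -0.52, and with Gm10800 left out and no other scaling 0.15, -0.05, 0.42, 0.24 and -0.21. Ikzf1, the targeted gene, was at 104 to 114 scaled TPM in WT against 33.03 to 42.1 in cKO libraries ex vivo, and at 66.7 to 71.1 against 23.3 to 30.1 after stimulation, without overlap in either condition. The Treg label was met by Foxp3 at 88.6 or more in every library. WT ex vivo 3 stood apart, with the X-linked transcript Xist at 191.0 and the Y-linked gene Ddx3y at 0.103 scaled TPM, against Xist at 1.86 or less and Ddx3y at 20.01 or more elsewhere. By these genes 1 library was female and 11 were male, so results that lean on it are also given without it.

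The 2 short members were the most abundant Schlafen transcripts in every group. In WT ex vivo Treg, Slfn2 was at 78.1 ± 15.2 scaled TPM (SD, n = 3 here and below) and Slfn1 at 55.0 ± 11.5. Slfn8 (28.8 ± 0.585) and Slfn5 (27.5 ± 2.71) came next and overlapped each other. Slfn9 (5.10 ± 0.204), Slfn3 (3.88 ± 0.443) and Slfn4 (1.65 ± 0.204) were low. TPM is a per-length scale, so levels of different genes can be compared on it. Ex vivo, the whole family summed to 180.0 to 233.3 scaled TPM in WT libraries and 160.5 to 167.7 in cKO. After stimulation the sums were 236.1 to 242.0 and 196.3 to 220.2. The reads behind a value ranged from 551 to 1612 for Slfn1, 730 to 1986 for Slfn2, 383 to 1694 for Slfn5, 387 to 1463 for Slfn8 and 177 to 663 for Slfn9. For Slfn3 and Slfn4 they were only 57 to 111 and 56 to 110.

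**Figure D1:**
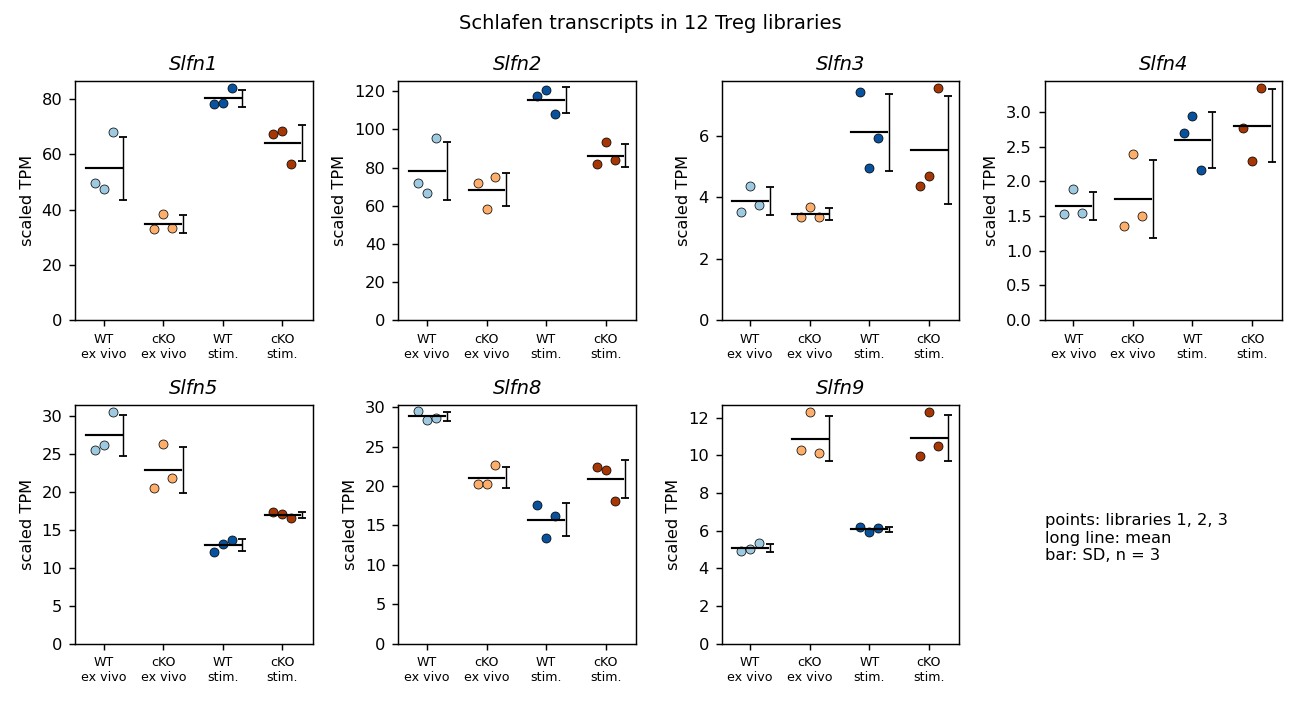
Scaled TPM (vertical axes, each from 0) of the 7 Schlafen genes in the 12 libraries by group, with points for libraries 1 to 3, a line at the mean and a bar of SD. Slfn9 was at 9.96 or more in all 6 cKO libraries and at 6.18 or less in all 6 WT libraries, while the WT stimulated libraries were the lowest for Slfn5 and Slfn8.

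In bulk RNA, fewer cells that express a gene and less RNA per cell cannot be told apart. The genotype comparisons ask which transcripts depend on Ikaros in resting and in activated Treg. Ex vivo, 3 of the 6 tested members passed an adjusted p of 0.05 in the limma fit (Slfn9 higher in cKO, Slfn1 and Slfn8 lower), against 5.29% of all genes tested (3.62% higher and 1.67% lower). After stimulation 1 of 6 passed, Slfn9 again and higher in cKO, against 6.93% of genes (3.3% higher and 3.63% lower), and the other 5 did not. At an unadjusted p under 0.05 it was 4 of 6 ex vivo, beside 2384 of 13318 genes, and 5 of 6 after stimulation, beside 3166. The stimulation comparisons set Treg after 4 h on antibodies to CD3 and CD28 against Treg taken ex vivo, in each genotype. No library held cells cultured without the antibodies, so receptor signals and time in culture cannot be told apart. In WT Treg 4 of 6 passed (Slfn1 and Slfn2 higher, Slfn5 and Slfn8 lower), against 32% of all genes (12.7% higher and 19.3% lower). In cKO Treg 2 of 6 passed (Slfn1 higher, Slfn5 lower), against 43.8% (17.3% higher and 26.5% lower). The interaction tests whether the genotype effect differed between the conditions, and 1 of 6 passed, Slfn8 with a higher value, against 1.1% of genes (0.451% higher and 0.653% lower). The split of all calls turned with the scaling. The share that was higher was 68.5% for genotype ex vivo and 47.6% after stimulation, 39.6% for stimulation in WT and 39.5% in cKO, and 40.8% for the interaction. In the TPM as deposited these shares were 95.2%, 22.5%, 60.5%, 11.9% and 8.96%, and without Gm10800 they were 90.9%, 41.6%, 86.3%, 68.7% and 15.1%. Quantile normalization gave 51.8% for stimulation in WT. Groups whose libraries did not overlap made up 21.5% of all genes for genotype ex vivo, 30.8% for genotype after stimulation, 47.5% for stimulation in WT and 53.5% in cKO. Between genotypes, the members' median change (log2) was -0.22 ex vivo and 0.11 after stimulation, beside -0.01 and -0.03 over all tested genes. With stimulation it was 0.37 in WT and 0.17 in cKO, beside 0.00 and -0.01, and for the interaction 0.14 beside -0.04. Calls went in both directions for genotype ex vivo and for stimulation in each genotype. The comparisons share groups, so their results are not independent of each other.

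**Figure D2:**
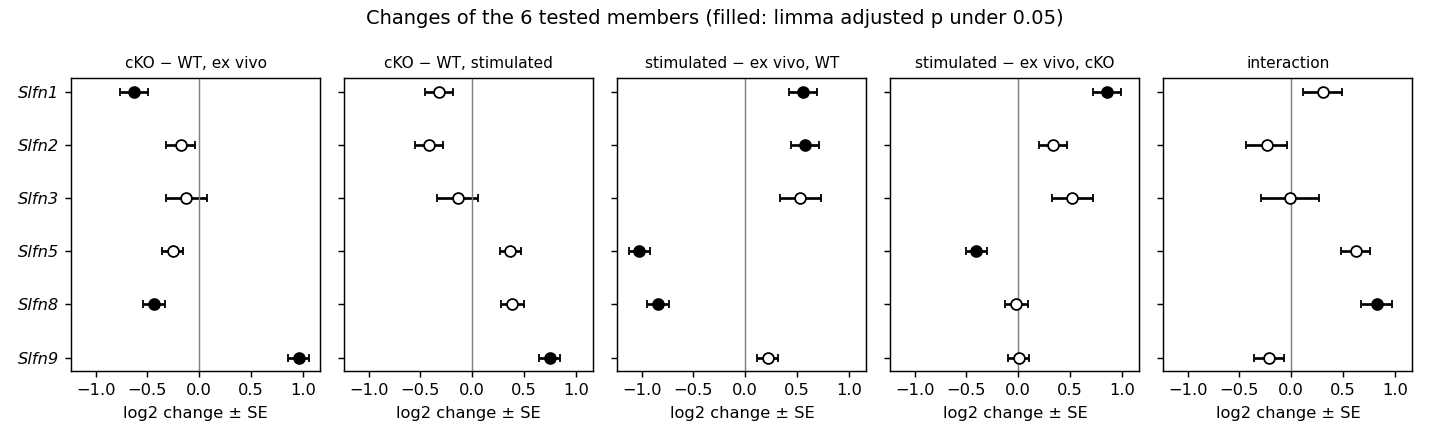
Log2 change with its SE (horizontal axes) of the 6 tested members in the 5 comparisons, filled where the limma adjusted p was under 0.05. Slfn9 lay right of 0 in both genotype comparisons, at 0.96 and 0.75, and Slfn5 and Slfn8 lay at -1.02 and -0.84 for stimulation in WT.

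Slfn9, a long member related to nucleases that cut transfer RNA, had the largest genotype effect of the 6 tested members in both conditions, except that after stimulation Slfn1 and Slfn2 changed more (lower in cKO) with genes from 1 TPM, with no floor and in the deposited TPM. Its level was 4.93, 5.05 and 5.33 scaled TPM in WT ex vivo libraries 1 to 3 and 10.3, 12.3 and 10.1 in cKO ex vivo. After stimulation it was 6.18, 5.93 and 6.14 in WT and 9.96, 12.3 and 10.5 in cKO. Every cKO library was above every WT library in both conditions. The cKO mean was 2.14 times the WT mean ex vivo and 1.80 times after stimulation. Slfn9 rose by 0.96 (log2, SE 0.10, limma adjusted p 0.000483) ex vivo, rank 33 of 13318 genes by p, and by 0.75 (SE 0.10, adjusted p 0.00151) after stimulation, rank 118. Genes that passed in both genotype comparisons and were higher in cKO in both made up 1.22% of those tested. Between ex vivo and stimulated libraries Slfn9 was at 5.10 ± 0.204 against 6.09 ± 0.137 in WT (0.22, SE 0.10, adjusted p 0.123) and at 10.9 ± 1.21 against 10.9 ± 1.23 in cKO (0.00, SE 0.10, adjusted p 0.979). The cKO value moved with the scaling, to -0.51 with genes from 1 TPM (adjusted p 0.0728), -0.50 with no floor (0.0771) and -0.30 in the deposited TPM (0.22). Its highest value over the alternatives was 0.25. Both genotype calls held without each single library, with adjusted p of up to 0.0034 ex vivo and 0.00968 after stimulation. They were lost with genes from 1 TPM (adjusted p 0.0714 and 0.337) or with no floor (0.0849 and 0.337), and the one after stimulation also in the TPM as deposited (0.138). Ex vivo the change itself stayed at 0.98 and 0.96 with these floors, whereas after stimulation it was 0.47 and 0.46, and 0.49 in the deposited TPM. Over all alternatives the adjusted p ran from 1.25e-06 to 0.0849 ex vivo and from 5.07e-05 to 0.337 after stimulation.

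Slfn8, the neighbour of Slfn9 and its closest relative, went the other way ex vivo. It was at 29.5, 28.4 and 28.6 scaled TPM in WT ex vivo and at 20.3, 20.2 and 22.7 in cKO ex vivo, with no overlap. After stimulation the order turned, with 17.5, 13.4 and 16.2 in WT and 22.4, 22.1 and 18.1 in cKO, again with no overlap. Ex vivo it fell by 0.44 (log2, SE 0.11, limma adjusted p 0.0427). After stimulation the difference was 0.39 higher in cKO (SE 0.11, adjusted p 0.0584) and did not pass. It passed in 5 of 24 alternatives, which were the floor on all libraries (0.0196), median of ratios (0.0484), quantiles (0.0171), voom (0.0189) and the fit without cKO stimulated 3 (0.0276). It was only 0.10 with genes from 1 TPM, 0.09 with no floor and 0.11 in the deposited TPM. In WT Treg stimulation lowered Slfn8 by 0.84 (SE 0.11, adjusted p 0.000195), whereas in cKO Treg the change was -0.02 (SE 0.11, adjusted p 0.902). That last value moved with the scaling, from -0.55 with genes from 1 TPM or no floor and -0.33 in the deposited TPM to 0.23 with quantiles and 0.24 without Gm10800, with no adjusted p under 0.05 among these. The difference between these stimulation effects, the interaction, was 0.82 (SE 0.15, adjusted p 0.034), rank 94 of 13318 by p. Genes that were lower in cKO ex vivo and higher after stimulation at any p made up 19.8% of those tested.

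Both calls of Slfn8 that involve genotype depended on single libraries. The ex vivo call was lost without any 1 of the 6 ex vivo libraries (adjusted p 0.0766 to 0.133) and without WT stimulated 3, cKO stimulated 1 or cKO stimulated 2 (0.0505 to 0.0661). The interaction passed only without WT stimulated 1 or without cKO stimulated 3, and was at 0.0514 to 0.0978 without each of the other 10. With a term for the replicate number neither call passed (limma adjusted p 0.0732 ex vivo and 0.0754 for the interaction). Over all alternatives the adjusted p of the ex vivo difference ran from 0.00804 to 0.79 and that of the interaction from 0.0022 to 0.72, with the same direction in all of them. The size of the interaction fell to 0.53 with genes from 1 TPM, 0.54 with no floor and 0.32 in the deposited TPM, and that of the ex vivo difference to -0.21 in the deposited TPM. The decrease with stimulation in WT passed in 23 of 24 alternatives, the exception being the TPM as deposited (adjusted p 0.0729).

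A ratio of 2 genes in 1 library does not depend on the scaling of that library. The ratio of Slfn9 to Slfn8, chosen after the values were seen, was 0.167, 0.178 and 0.186 in WT ex vivo and 0.506, 0.607 and 0.447 in cKO ex vivo. It was 0.353, 0.441 and 0.378 in WT stimulated and 0.445, 0.558 and 0.582 in cKO stimulated. WT ex vivo was the lowest group without overlap with any other, and the mean ratio was 2.94 times as high in cKO ex vivo and 2.21 times as high in WT stimulated. After stimulation the cKO ratio was 1.35 times the WT ratio, the nearest libraries being 0.445 and 0.441. By exact permutation (two-sided) each of these 3 differences was at p = 0.1, the lowest value possible with 20 arrangements, so none could pass 0.05. In cKO the ratio was 0.520 ± 0.0809 ex vivo and 0.528 ± 0.0728 after stimulation, which overlapped. The sum of Slfn8 and Slfn9 was 33.9 ± 0.482 scaled TPM in WT and 31.96 ± 1.21 in cKO at rest. After stimulation it was 21.8 ± 2.23 in WT and 31.8 ± 2.95 in cKO. Some reads of the pair match both genes, and what this does to the ratio was not tested.

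**Figure D3:**
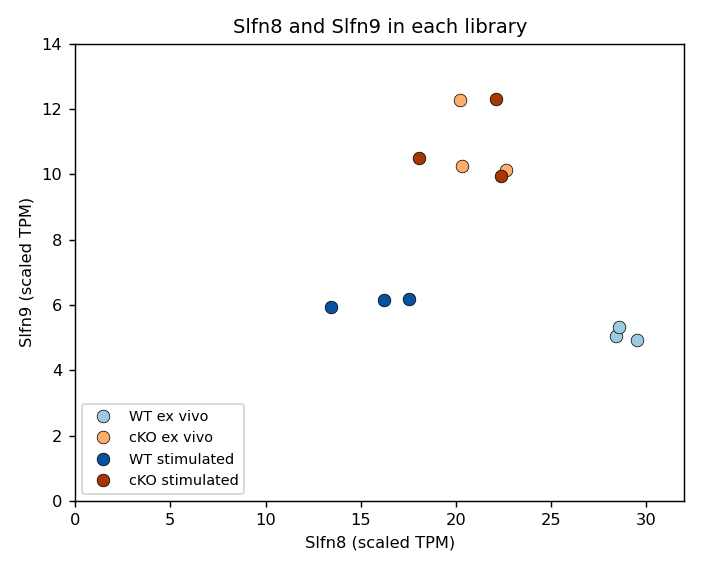
Slfn9 (vertical axis) against Slfn8 (horizontal axis), both in scaled TPM, in each of the 12 libraries, coloured by group. The WT ex vivo libraries lie apart at the lower right, the WT stimulated libraries lie to their left at nearly the same Slfn9 level, and both cKO groups lie together above 9.9 scaled TPM of Slfn9.

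Slfn5, the third long member, is known as a regulator of interferon-driven transcription. It was at 25.6, 26.2 and 30.6 scaled TPM in WT ex vivo and 20.5, 26.3 and 21.9 in cKO ex vivo, where the groups overlapped. After stimulation it was at 12.1, 13.2 and 13.7 in WT and 17.4, 17.1 and 16.5 in cKO, where they did not. Stimulation lowered Slfn5 in both genotypes, by 1.02 (log2, SE 0.10, limma adjusted p 3.73e-05) in WT and by 0.40 (SE 0.10, adjusted p 0.00927) in cKO. The WT decrease passed in all 24 alternatives. The cKO decrease was lost without cKO stimulated 3 (adjusted p 0.0527) and under another floor and 2 other scalings (0.058 to 0.349), and its adjusted p over all alternatives ran from 0.00296 to 0.349. The cKO change was -0.94 with genes from 1 TPM, -0.93 with no floor, -0.72 in the deposited TPM and -0.18 with quantiles. In WT it was -1.26, -1.27, -0.83 and -0.88 in these 4 settings. The genotype difference was -0.25 (SE 0.10, adjusted p 0.212) ex vivo and 0.37 (SE 0.10, adjusted p 0.0569) after stimulation. The interaction of 0.62 (SE 0.14, adjusted p 0.0696) did not pass. Both of the last 2 values passed in some alternatives, 5 of 24 after stimulation and 4 of 23 for the interaction, among them without cKO ex vivo 2 (adjusted p 0.0329 and 0.037), and the difference after stimulation also passed without WT ex vivo 3 (0.0362). With genes from 1 TPM, with no floor and in the deposited TPM they were smaller, at 0.0788, 0.0727 and 0.092 after stimulation and 0.33, 0.34 and 0.12 for the interaction. Summed, the 3 long members were at 61.4 ± 2.66 scaled TPM in WT and 54.9 ± 3.88 in cKO at rest, and at 34.8 ± 1.95 and 48.8 ± 3.30 after stimulation.

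Slfn1, a short member first known for slowing thymocyte growth, was lower in cKO Treg at rest and higher after stimulation in both genotypes. Its levels were 49.5, 47.3 and 68.2 scaled TPM in WT ex vivo and 32.9, 38.6 and 33.2 in cKO ex vivo. They were 78.2, 78.6 and 84.0 in WT stimulated and 67.5, 68.3 and 56.5 in cKO stimulated. The genotypes did not overlap in either condition. Slfn1 fell by 0.63 (log2, SE 0.14, limma adjusted p 0.0229) in cKO ex vivo, and the difference after stimulation was -0.32 (SE 0.14, adjusted p 0.177). In the deposited TPM these were -0.39 and -0.61, and the difference after stimulation was -0.62 with genes from 1 TPM, -0.63 with no floor and -0.14 with quantile normalization. Stimulation raised it by 0.56 (SE 0.14, adjusted p 0.00942) in WT and by 0.86 (SE 0.14, adjusted p 0.000582) in cKO, and the interaction of 0.30 (SE 0.19, adjusted p 0.493) did not pass. That interaction turned to -0.0016 with genes from 1 TPM and -0.22 in the deposited TPM, and was 0.01 with no floor. The highest ex vivo level was in the female library, WT ex vivo 3. Without it the genotype difference ex vivo was -0.47 with an adjusted p of 0.051. The call was also lost without cKO ex vivo 1 (0.0864) or cKO ex vivo 3 (0.0886), and with a term for the replicate number (0.0536). Its adjusted p ran from 0.000929 to 0.597 over all alternatives. Without WT ex vivo 3 the WT rise was 0.73 (adjusted p 0.001). Both rises were lost with genes from 1 TPM, with no floor and in the deposited TPM, where the adjusted p was 0.0541 to 0.568 in WT and 0.103 to 0.44 in cKO. With these floors the rise was 0.31 and 0.30 in WT and 0.31 for both in cKO, and in the deposited TPM it was 0.75 in WT and 0.53 in cKO.

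Slfn2, the quiescence factor of T cells, was at 72.1, 66.7 and 95.4 scaled TPM in WT ex vivo and 71.9, 58.4 and 74.9 in cKO ex vivo, which overlapped. After stimulation it was at 118, 121 and 108 in WT and 81.7, 93.3 and 83.8 in cKO, without overlap. It rose by 0.58 (log2, SE 0.14, limma adjusted p 0.00856) with stimulation in WT, a call lost only with genes from 1 TPM (0.564) or no floor (0.587) among 24 alternatives. The rise was 0.33 and 0.32 with these floors, 0.77 in the deposited TPM and 1.02 with quantile normalization. In cKO the change of 0.34 (SE 0.14, adjusted p 0.0677) did not pass, except in 7 of 24 alternatives, one of them without WT ex vivo 3 (0.0155), and it turned to -0.22 when genes from 1 TPM were tested. The genotype difference was -0.18 (SE 0.14, adjusted p 0.572) ex vivo, near 0 without WT ex vivo 3 (-0.03) and 0.06 in the deposited TPM. After stimulation it was -0.42 (SE 0.14, adjusted p 0.0967), with adjusted p of 0.026 to 0.33 over the alternatives. Its size was -0.72 with genes from 1 TPM, -0.73 with no floor, -0.71 in the deposited TPM and -0.25 with quantile normalization. The interaction of -0.24 (SE 0.19, adjusted p 0.602) did not pass, so the stimulation effects of Slfn2 in WT and cKO were not shown to differ. The size of this interaction was -0.55 with genes from 1 TPM, -0.53 with no floor, -0.76 in the deposited TPM (adjusted p 0.131) and -0.08 with quantile normalization. The ratio of Slfn1 to Slfn2, also chosen after the values were seen, was 0.704 ± 0.0153 in WT and 0.520 ± 0.121 in cKO at rest, and 0.698 ± 0.0696 and 0.744 ± 0.0769 after stimulation. The cKO ex vivo libraries (0.444 to 0.660) did not overlap WT ex vivo (exact permutation p = 0.1), but did overlap WT stimulated, whose lowest was 0.651.

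The short members took 66.2 ± 3.50% of the family's summed level in WT ex vivo and 63.2 ± 2.89% in cKO ex vivo, where the groups overlapped. They took 81.8 ± 1.15% in WT stimulated and 72.4 ± 0.985% in cKO stimulated, where every WT library (81.0% to 83.1%) was above every cKO library (71.5% to 73.4%).

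The intermediate members were close to the lower end of what was measured. Slfn3, described in activated Treg and in gut epithelium, was at 3.53 to 4.38 scaled TPM in WT and 3.35 to 3.69 in cKO at rest, and at 4.97 to 7.44 and 4.36 to 7.57 after stimulation. The genotypes overlapped in both conditions (-0.13 ex vivo with limma adjusted p 0.824, and -0.14 after stimulation with 0.70, SE 0.20 for both). The stimulated libraries did not overlap the ex vivo libraries of their genotype, with changes of 0.53 (SE 0.20, adjusted p 0.0618) in WT and 0.52 (SE 0.20, adjusted p 0.054) in cKO that did not pass. They passed in 3 and 4 of 23 alternatives, in WT without cKO stimulated 3 (0.0264) and in cKO without cKO stimulated 1 (0.0389) among them. The cKO change was only 0.06 with genes from 1 TPM and with no floor, 0.10 with quantiles and 0.25 in the deposited TPM. In WT it was 0.33, 0.32, 0.34 and 0.70 in these 4 settings. Slfn3 reached the floor of 5 TPM only through WT stimulated (6.72 TPM as deposited, against 3.64, 3.86 and 4.78 in the other groups), the group where it was high, so its change with stimulation is a description. Slfn4, known mostly from myeloid cells, was at 1.53 to 1.88 scaled TPM in WT and 1.35 to 2.39 in cKO at rest, and at 2.16 to 2.95 and 2.29 to 3.34 after stimulation. It was below the floor of 5 TPM. With genes from 1 TPM no comparison of Slfn4 passed (limma adjusted p of at least 0.312). Of the 10 macrophage and monocyte markers found, 1 was tested, Cd68, and it passed as higher with stimulation in both genotypes (means of 6.38 and 12.5 scaled TPM in WT, and 7.15 and 11.7 in cKO). The sum over all 10 was higher after stimulation, at 21.3 to 27.2 scaled TPM ex vivo and 30.02 to 41.7 stimulated in WT, and 19.7 to 31.3 and 36.3 to 44.7 in cKO. Cd14 went the other way in WT (mean 2.05 ex vivo and 1.88 stimulated). Lyz2 was at 2.33 or less and Csf1r at 3.91 or less in every library. The part of these low-level reads in the Slfn3 and Slfn4 values was not tested.

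Among the other Schlafen models, Slfn10-ps, a pseudogene in the cluster, was at 8.69 ± 1.28 scaled TPM in WT ex vivo and 10.1 ± 0.61 in cKO ex vivo, and passed in no comparison (limma adjusted p of at least 0.164). Slfn14-ps and Slfnl1 stayed at 4.59 or less in every library. Of 17 other gene models between the members or within 100 kb, 10 were tested. None passed in either genotype comparison by limma or by voom (0 and 1 at an unadjusted p under 0.05) or in the interaction (0 by either, 0 unadjusted), beside 5.29% and 6.93% of all genes for genotype. With stimulation 1 of 10 rose in WT and 2 of 10 in cKO, beside 12.7% and 17.3% of all genes. Rad51l3, a DNA repair gene, rose by 0.33 (limma adjusted p 0.0429) in WT and 0.46 (adjusted p 0.00772) in cKO, and Nle1, a ribosome assembly gene, by 0.29 (adjusted p 0.0475) in cKO.

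**Figure D4:**
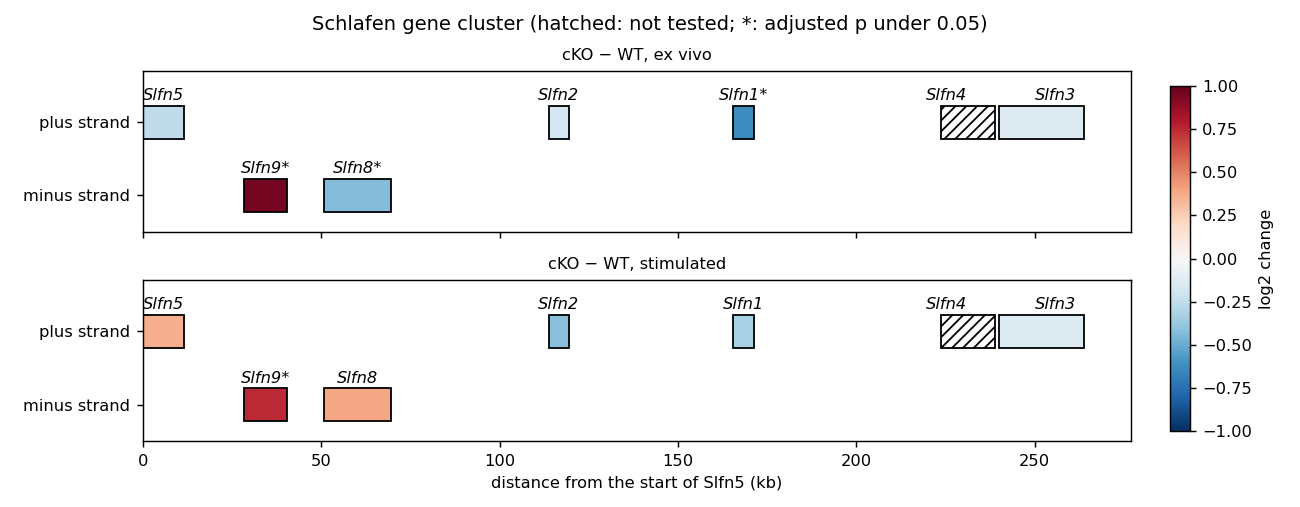
Map of the Schlafen cluster in kb from the start of Slfn5, by strand, with each gene coloured by its log2 difference cKO minus WT ex vivo (top) and after stimulation (bottom). The neighbours Slfn9 and Slfn8 have opposite colours ex vivo (0.96 and -0.44) and the same colour after stimulation (0.75 and 0.39).

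Among 38 interferon-stimulated genes listed for comparison, 34 were tested. Stimulation lowered 25 of them and raised 0 in WT (median -0.64, against 0.00 over all tested genes), and lowered 11 and raised 7 in cKO (median -0.21). Over all genes 19.3% were lower and 12.7% higher in WT, and 26.5% and 17.3% in cKO, so that the cKO counts lay near the background. Examples in WT were Ddx58, a sensor of viral RNA, which fell by 1.17 (SE 0.08, limma adjusted p 3.82e-06), and Oas3, which senses double-stranded RNA and fell by 1.36 (SE 0.13, adjusted p 2.49e-05). Slfn5 and Slfn8 fell in the same comparison, while Slfn1 and Slfn2 rose. In cKO against WT, 1 of the 34 was higher and 3 were lower ex vivo by limma, with a median of -0.02, beside 3.62% and 1.67% of all genes. By voom 9 of the 34 passed there, beside 9.03% of all genes. By limma 10 had an unadjusted p under 0.05, beside 2384 of 13318 genes. Samd9l, an antiviral factor, fell by 0.64 (SE 0.08, adjusted p 0.00147) and Ifih1, another RNA sensor, rose by 0.79 (SE 0.12, adjusted p 0.00513). After stimulation 17 were higher and 1 was lower in cKO (median 0.61, against -0.03 over all genes), beside 3.3% and 3.63% of all genes. Among them were Parp14, at 33.8 ± 5.54 against 72.1 ± 9.15 scaled TPM (1.08, SE 0.12, adjusted p 0.000561), and Stat2, a transducer of interferon signals, at 16.6 ± 1.97 against 32.6 ± 1.55 (0.94, SE 0.11, adjusted p 0.000561). The interaction passed for 6 by limma, all higher, beside 0.451% of all genes, and for 12 by voom, beside 2.97% in either direction. Among the 6 was Usp18, which trims the modifier Isg15, with the smallest adjusted p (1.746, SE 0.26, limma adjusted p 0.0132).

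Of 14 genes of interferon receptors and their signal, 13 were tested. Ifng, which encodes interferon gamma, was at 22.5 ± 4.31 scaled TPM in WT ex vivo and 71.2 ± 19.4 in cKO ex vivo (1.60, SE 0.26, limma adjusted p 0.00616), and at 4.00 ± 1.08 and 28.5 ± 9.67 after stimulation (2.54, SE 0.26, adjusted p 0.000325). Ifngr1, a chain of its receptor, was lower in cKO ex vivo (-0.97, SE 0.15, adjusted p 0.00498). By limma no other gene of the list passed ex vivo, so 1 of 13 was higher and 1 lower, beside 3.62% and 1.67% of all genes. By voom 4 passed, beside 9.03% of all genes. By limma 4 had an unadjusted p under 0.05, beside 2384 of 13318 genes. After stimulation 4 were higher in cKO and 1 was lower by limma, beside 3.3% and 3.63% of all genes. Socs1, a brake on the pathway, was among the higher ones and had the smallest adjusted p (2.18, SE 0.22, adjusted p 0.000285).

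The list of 25 T cell quiescence genes, 24 of them tested, had calls in one direction alone in each of the 5 comparisons. In cKO, 7 were lower and 0 higher ex vivo (median -0.24), beside 1.67% of all genes lower, and 9 passed by voom, beside 9.03% in either direction. After stimulation 9 were lower and 0 higher (median -0.49), beside 3.63%, while 15 passed by voom, beside 9.36% in either direction. Stimulation lowered 16 in WT (median -0.59) and 21 in cKO (median -0.96) and raised 0, beside 19.3% and 26.5% of all genes lower. Klf2, which keeps T cells resting, was at 1495 ± 281 scaled TPM in WT ex vivo and 546.5 ± 57.8 in cKO ex vivo (-1.44, SE 0.15, limma adjusted p 0.000483), and Lef1, of naive T cells, fell by 0.69 (SE 0.09, adjusted p 0.00173). Slfn2, itself a quiescence factor, rose with stimulation in WT, opposite to this list. Of 12 genes of transfer RNA and translation stress, 7 were tested and 0 passed in the genotype comparisons or the interaction by limma or by voom (2, 0 and 1 at an unadjusted p under 0.05). Stimulation lowered 2 of 7 in WT and 3 of 7 in cKO, beside 19.3% and 26.5% of all genes, among them Elac2, which trims transfer RNA (-0.46 in WT, limma adjusted p 0.011, and -0.57 in cKO, 0.00288).

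The genes most like each member, by Pearson r of log2(scaled TPM + 1) over the 12 libraries, are given as a description, since all points share libraries and scaling. For Slfn9 they were Mmp14 (Pearson r 0.985), which encodes a membrane-bound protease, Lgals7 (0.971), a galectin, and Pcgf2 (0.967), a Polycomb subunit. Mmp14 was at 4.32 and 6.51 scaled TPM in WT ex vivo and stimulated and at 15.1 and 16.7 in cKO, higher in cKO like Slfn9. For Slfn5 they were AI480653 (0.981), the interferon-inducible gene Ifi203 (0.977) and Pttg1 (0.950), for which stimulation went with lower levels. Ifi203 was at 51.9 and 42.9 in WT and cKO ex vivo and at 15.2 and 22.4 after stimulation. For Slfn8 the closest were Mgat4a (0.931), Wdr82 (0.921) and Agpat3 (0.918). For Slfn1 they were Uckl1 (0.954), AI987944 (0.949) and Rasa2 (0.947), for Slfn2 Psmc1 (0.972), Wdr48 (0.963) and Itm2a (0.953), and for Slfn3 Mrpl22 (0.954), 2810408M09Rik (0.949) and Bloc1s3 (0.942).

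Markers of other cells were measured beside the members. The 10 markers of Treg and T cells summed to 3773 to 4292 scaled TPM in WT and 3885 to 4146 in cKO at rest, and to 2368 to 2564 and 1935 to 2591 after stimulation. Among B cell markers, Ighm had group means of 300.2 scaled TPM in WT and 363.8 in cKO at rest against 96.1 and 91.0 after stimulation, while Ms4a1, Cd79a and Pax5 were at 6.64 or less in every library. Cd79b was higher in cKO, with means of 6.31 in WT and 10.7 in cKO at rest and 3.67 and 7.81 after stimulation. Of the 2 tested B cell markers, Ighm and Cd79b, 1 was higher in cKO after stimulation by limma and 0 were ex vivo, and stimulation lowered 2 of 2 in WT and 1 of 2 in cKO. Slfn9 was higher in cKO too, and the part of B cell RNA in that was not tested. Slfn5 and Slfn8 also fell with stimulation in WT, and the part of B cell RNA in that was not tested. The 5 dendritic markers, none of them tested, had sums of 6.97 to 11.6 ex vivo against 13.2 to 13.7 after stimulation in WT, and of 6.88 to 10.1 against 13.04 to 19.7 in cKO. The groups did not overlap, and their part in the Schlafen stimulation values was not tested. The 7 neutrophil markers summed to at most 21.4, the 6 NK and CD8 T cell markers to at most 27.3 and the 4 erythroid markers to at most 9.40, with Hba-a1 at 0.342 or less. Median sums of these lists were also higher after stimulation, in WT at 8.48 and 15.3, 19.5 and 21.1, and 4.17 and 4.90. In cKO they were 10.3 and 18.3, 14.9 and 22.5, and 3.97 and 5.67. Libraries overlapped, except for NK and CD8 T cells in cKO. The part of this shift in the Slfn3 and Slfn4 values was not tested.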

How the data were processed

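The labels and the study's methods say that total RNA of sorted Treg was depleted of ribosomal RNA, made into strand-specific libraries and sequenced as 51 bp paired ends. The authors aligned reads to mm9 with STAR 2.6.0c and counted them on exons by strand with HTSeq 0.6.1. The deposited values are a signal in TPM for 36222 genes in 12 libraries, each summing to 1000000, and a log2 column that the authors made from TPM. From both, reads per gene were recovered (99.9977% whole within 0.01 of a read). The authors' table of their own edgeR comparisons (fold changes and p-values) was not used.

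Genes whose highest group mean reached 5 TPM were kept. Scaling factors were trimmed means of M-values, with 30% of M and 5% of A trimmed. A linear model with group as its term was fitted to log2(scaled TPM + 1) of all 12 libraries by limma 3.58.1 in R 4.3.3 (eBayes with trend), so changes of low genes are understated. Tests were two-sided, with Benjamini-Hochberg adjustment over all genes of a comparison and a threshold of 0.05. Each group holds 3 biological replicates from individual mice per the extraction protocol in the labels. The sequenced fragments carry no molecular identifiers.

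The fit was tested on simulated data with 200 genes changed 2-fold in cKO ex vivo, among 13318. It called 155 of them for genotype ex vivo (77.5%) and 162 for the effect of stimulation in cKO (81%), but 33 in the interaction test (16.5%), and voom called 196, 194 and 132. The first pass mark of 180 was missed, and a mark of 150 that leaves out the interaction was set after seeing this. Interactions that did not pass are therefore weak evidence of no difference.

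The genes named were the 7 members, Ikzf1, other Schlafen models, neighbours that passed, the 3 genes most like each tested member, and at most 4 genes per comparison from each of 4 lists by smallest adjusted p. The members, the lists and the 5 TPM floor were chosen with earlier results of these data known. Xist, Ddx3y, Gm10800, the ratios and sums, and the markers named singly were chosen after their values were seen. Of the marker lists, 1 gene is not reported here, nor the sum of the list that holds it. Positions and sequences came from NCBIM37 with GENCODE vM1. Alternatives were 2 other floors and none, 3 other scalings, pseudocounts of 0.5 and 5, voom (limma) on recovered reads, the compared groups alone, a replicate block, each library left out, and, added after seeing the data, TPM rescaled without Gm10800.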

Additional observations from a re-analysis of the deposited data

Results flagged for a closer look

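One result of the Schlafen family met a rule for a closer look, because the genotype effect differed between the conditions by a test of the difference itself. The interaction of Slfn8 was 0.82 (log2, SE 0.15, limma adjusted p 0.034), with Slfn8 lower in cKO than in WT in all 3 ex vivo libraries and higher in all 3 stimulated libraries. It passed in 8 of 23 alternatives (adjusted p 0.0022 to 0.72) and is not stable to leaving out single libraries. Groups of 3 libraries are too small for a test of single outlying libraries.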

How the results depend on the processing

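Over 24 alternative settings, the 30 changes of members gave 709 values, of which 591 kept their direction and side of the threshold, 57 lost a call, 31 gained one and 30 turned in direction, none of these 30 passing the test. Counts of members called are given here in the order genotype ex vivo, genotype after stimulation, stimulation in WT, stimulation in cKO and interaction, and were 3, 1, 4, 2 and 1 as reported. With genes from 1 TPM, and likewise with no floor, they were 0, 0, 2, 1 and 0, and in the TPM as deposited 1, 0, 2, 1 and 0. The shares of all genes were 0.168%, 0.154%, 5.11%, 17.5% and 0% with genes from 1 TPM. They were 0.121%, 0.144%, 4.63%, 15.7% and 0% with no floor, and 2.05%, 2.3%, 14.6%, 35.1% and 0.503% as deposited. With a floor on the mean of all libraries, under which Slfn3 was not tested, genotype after stimulation had 3 and the interaction 2. These stood beside 8.53% and 2.22% of all genes. Quantile normalization gave the same 2 counts, beside 11.8% and 2.97%. Median-of-ratios factors gave 2 for genotype after stimulation and 4 for stimulation in cKO, beside 6.86% and 43.7% of all genes, and voom 4, 4 and 2 for these and the interaction, beside 9.36%, 46.8% and 2.97%. Without Gm10800 the genotype counts were 1 and 2 and the interaction 0, beside 5.63%, 5.08% and 1.94% of all genes. Leaving out 1 library gave 1 to 3, 1 to 2, 4 to 5, 1 to 3 and 0 to 1. The shares of all genes were then 2.49% to 5.56%, 3.18% to 7.43%, 24.3% to 32.9%, 31% to 44.7% and 0.42% to 1.56%. The cause of these differences was not tested.

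The replicate block left 1 member for genotype ex vivo and 0 for the interaction (Slfn1 at adjusted p 0.0536, Slfn8 at 0.0732 and 0.0754). Same-numbered libraries correlated at -0.208 to 0.257 over all pairs of groups. Between WT ex vivo and cKO ex vivo these values were 0.149, 0.257 and 0.078, against -0.182 to 0.063 for different numbers. Such weak correlations can neither show nor exclude a shared batch. With the block 65 genes in place of 147 passed the interaction.

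Values that turned, all log2, were these. With genes from 1 TPM, stimulation in cKO was -0.22 for Slfn2 and -0.51 for Slfn9 and the interaction of Slfn1 was -0.0016. With no floor, Slfn2 and Slfn9 were -0.21 and -0.50 in cKO and Slfn9 -0.0038 in WT. In the deposited TPM, genotype ex vivo was 0.0563 for Slfn2 and 0.0633 for Slfn3, stimulation in cKO -0.30 for Slfn9, and the interaction -0.22 for Slfn1. Stimulation in cKO of Slfn8 was 0.12 with the floor on all libraries, 0.0426 with median of ratios, 0.23 with quantiles, 0.0035 in the compared groups alone and 0.24 without Gm10800, and -0.0704 to 0.12 without 1 library each. For Slfn9 it was -0.0219 with quantiles and -0.0784 to 0.0855 without 1 library each. The interaction of Slfn3 was 0.0143 with median of ratios and -0.19 to 0.117 without 1 library each, and its genotype effect ex vivo 0.0052 without Gm10800.

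Over all genes, counts moved by over 1.5 times as follows. With genes from 1 TPM 57, 52, 1731 and 0 passed for genotype ex vivo, genotype after stimulation, stimulation in WT and the interaction, with no floor 44, 52, 1677 and 0, and in the deposited TPM 273, 306, 1943 and 67. Quantiles gave 1572 for genotype after stimulation and 396 for the interaction, voom 1203 for genotype ex vivo and 395 for the interaction, the compared groups alone 342 and 552 for genotype, and the floor on all libraries and the rescaling without Gm10800 239 and 258 for the interaction. Leaving out 1 library gave 331 to 740, 424 to 990, 3234 to 4383, 4131 to 5953 and 56 to 208.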
